A study of Mus musculus with 6 samples.

Results

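Oxidative phosphorylation makes most of the ATP of a working muscle fibre. Complexes I (NADH dehydrogenase) and II (succinate dehydrogenase) pass electrons to coenzyme Q, complex III and cytochrome c carry them to complex IV (cytochrome c oxidase), and complex V (ATP synthase) uses the proton gradient. Most of the subunits are encoded in the nucleus, a few in mitochondrial DNA, and dedicated assembly factors that are no part of the finished complexes build and load the subunits with cofactors. Several complex IV subunits have a muscle isoform next to a ubiquitous one.

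The nuclear genes of this system were taken from a table of 28510 genes by name, as all symbols starting with Nduf, Sdh, Uqcr, Cox4i, Cox5, Cox6, Cox7, Cox8 or Atp5, together with Cyc1, Cycs and Uqcc. This gave 96 genes, of which 79 encode subunits or cytochrome c, 7 are assembly factors (Ndufaf, Sdhaf and Uqcc names) and 10 are other genes with these prefixes. All 79 subunit genes, the 7 assembly factors and 6 of the 10 others passed the filter on low counts, 92 in all. The subunit genes comprise 36 of complex I, 4 of complex II, 9 of complex III, 14 of complex IV, 15 of complex V and Cycs. Ndufa4 is counted in complex IV, where its protein is now placed. A further 8 assembly factors of the same families stand in the table under other names and were found by their gene identifiers, for example Sdhaf3 as Acn9. They are described beside the 7.

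RNA was sequenced from whole tibialis anterior, a muscle of the shin, of C57BL/6 mice at 12 months. The 3 KO samples (H2A-Z.1-/- and also H2A-Z.2-/-, with HSA Cre+) lacked both genes of the histone variant H2A.Z through Cre recombinase under the human skeletal actin promoter, whose activity lies in the fibres of skeletal muscle. The 3 WT samples carried the floxed alleles of both genes (H2A-Z.1 flox/flox and also H2A-Z.2 flox/flox) and no Cre, and no control with Cre alone is analysed here. Nothing in the labels says that each sample came from its own animal, so the spread behind every p-value is that of these 6 samples and may be partly technical. The question was what H2A.Z loss does to transcription in muscle. Libraries held 62318774 to 102919416 counts in KO and 35456883 to 88477775 in WT. H2afz, which encodes H2A.Z.1, had 5.15, 4.14 and 4.51 CPM (TMM-scaled counts per 1e6 counts) in KO muscle, against 18.5, 15.9 and 15.2 CPM in WT muscle. H2afv, which encodes H2A.Z.2, had 4.06, 3.77 and 4.57 CPM in KO muscle, against 19.1, 16.0 and 20.7 CPM in WT muscle. Both targeted genes fell in the fit.

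In edgeR's quasi-likelihood test with Benjamini-Hochberg adjustment over all 16628 genes tested, a gene is said to have risen or fallen at an adjusted p below 0.05. At that threshold 25.9% of all genes changed in KO muscle (13.5% rose and 12.4% fell). Among the 4745 genes at least as abundant as the lowest subunit gene, which averaged 17.7 CPM over the libraries, 26.8% changed. With library size alone in place of TMM, 76.8% of calls were rises, against 52.2% with TMM, and the median over all genes was 0.22 on the log2 scale, against 0.01. Fold changes are therefore relative to the TMM scale. The genes named for each complex are those called, the 2 with the lowest p and the highest and lowest by level per kb.

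The upstream sequences of the 4 genes with the lowest p among those found by name are shown, and no fold change was tested against them. Each is the 250 bases before the RefSeq start on GRCm38.p6, read 5′ to 3′ along the gene: Ndufaf2 at chr13:108158626-108158875 (minus strand), Ndufs4 at chr13:114388095-114388344 (minus strand), Ndufaf3 at chr9:108567437-108567686 (minus strand) and Ndufaf4 at chr4:24897833-24898082 (plus strand). Capitals mark matches to a core motif of NRF1 (GCATGCGC), the ETS family (CCGGAAG), YY1 (AANATGGC) or ERR (TNAAGGTCA), factors known to drive respiratory genes, searched on both strands.
Ndufaf2: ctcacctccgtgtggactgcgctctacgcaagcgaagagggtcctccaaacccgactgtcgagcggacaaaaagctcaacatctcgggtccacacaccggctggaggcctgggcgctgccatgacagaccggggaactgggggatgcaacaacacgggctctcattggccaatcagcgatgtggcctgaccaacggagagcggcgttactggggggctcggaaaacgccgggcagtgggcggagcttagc
Ndufs4: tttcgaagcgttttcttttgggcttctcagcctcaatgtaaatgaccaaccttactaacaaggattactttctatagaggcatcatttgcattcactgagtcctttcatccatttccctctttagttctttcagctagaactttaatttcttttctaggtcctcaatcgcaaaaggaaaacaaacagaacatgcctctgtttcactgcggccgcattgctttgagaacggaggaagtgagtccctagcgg
Ndufaf3: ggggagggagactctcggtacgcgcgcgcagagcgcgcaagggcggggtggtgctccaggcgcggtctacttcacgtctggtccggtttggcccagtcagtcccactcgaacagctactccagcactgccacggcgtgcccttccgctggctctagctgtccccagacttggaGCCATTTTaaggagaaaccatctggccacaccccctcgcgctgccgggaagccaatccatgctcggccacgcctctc
Ndufaf4: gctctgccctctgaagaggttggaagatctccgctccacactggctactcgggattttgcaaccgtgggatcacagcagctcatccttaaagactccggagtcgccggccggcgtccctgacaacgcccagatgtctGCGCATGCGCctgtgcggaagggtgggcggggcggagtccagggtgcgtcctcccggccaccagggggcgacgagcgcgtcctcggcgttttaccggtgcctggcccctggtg
Ndufaf4 held the NRF1 motif as a palindrome that matched on each strand, 2 overlapping matches. Ndufaf3 held 1 YY1 match, and the Ndufaf2 and Ndufs4 windows held none of the 4. Of the subunit genes, 65 of 79 had a promoter in the RefSeq table. The NRF1 motif was present in 13.8% of these, against 2.32% of the first promoters of all 27025 genes, and the ETS motif in 16.9%, against 7.05%. The YY1 motif stood in 6.15% of the subunit promoters, against 3.93% of all, and the ERR motif in 3.08%, against 308 of the 27025 genes. Of the 14 assembly factor genes with a promoter, 1 held the NRF1 motif, 4 the ETS motif, 2 the YY1 motif and 0 the ERR motif. The 27025 genes were not matched to the subunit genes in level or in GC content, so the shares do not single out the gene family. A match describes the letters and says nothing of binding in these samples.

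Subunit genes differed little between KO and WT muscle, while 8 of 15 assembly factor genes fell and 1 rose. Of the 79 subunit genes, 1 rose (Cox8a) and 1 fell (Ndufs4), 2.53% of them, beside the 25.9% of all genes tested. The median log2 fold change of the subunit genes was 0.01, with a range of -0.73 to 0.53, and 42 were above 0 and 37 below. This median moved to -0.11 without WT replicate 2 and to 0.10 without WT replicate 3. With library size alone it was 0.23, beside 0.22 for all genes tested. The median size of change of the subunit genes was 0.16 on the log2 scale, against 0.37 for all genes tested. At an unadjusted p under 0.05 in edgeR, 3 of the 79 subunit genes were higher and 4 lower in KO muscle, beside 38.3% of all genes tested in either direction. KO and WT libraries did not overlap for 10.1% of the subunit genes (5 higher and 3 lower in KO), beside 42.6% of all genes tested. For 25 of the 79 subunit genes the 95% interval of the log2 fold change lay within -0.5 and 0.5, beside 14.5% of all genes tested. For 77 it lay within -1 and 1. The authors' deposited table, at its own adjusted p below 0.05, called 2 subunit genes up (Cox8a and Atp5k) and 3 down (Ndufs4, Ndufa6 and Ndufv3), beside 24.7% of all genes tested.

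**Figure D1:**
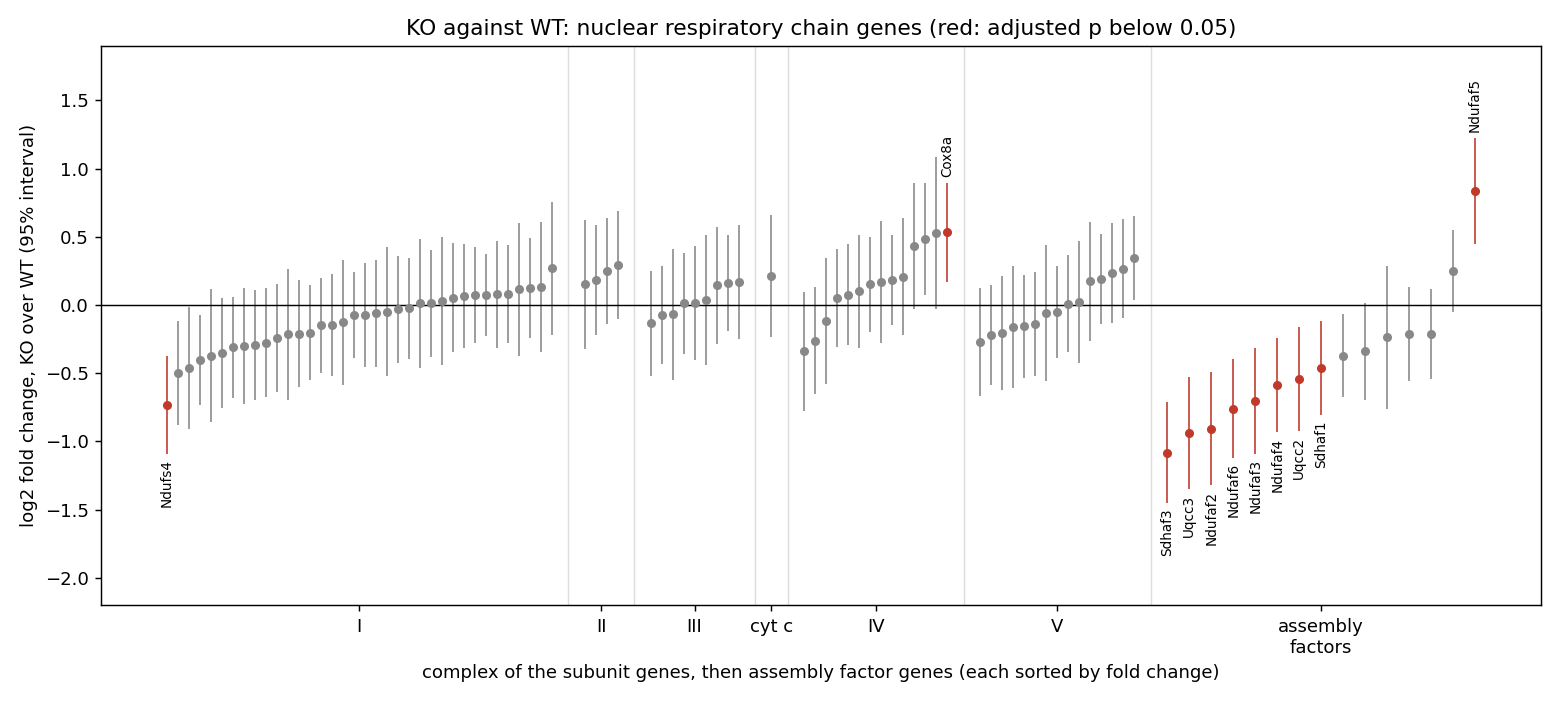
Log2 fold change of KO over WT (y axis, with its 95% interval) of the subunit genes by complex and of the 15 assembly factor genes, sorted within each group, with genes at an adjusted p below 0.05 in red. Subunit genes lie between -0.73 and 0.53 with 2 in red, and 8 assembly factors lie below 0 in red, with 1 above 0.

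The summed level of all 79 subunit genes was 20370.3, 19535 and 23505 CPM in KO libraries, against 21705, 18320.5 and 23200.1 CPM in WT libraries. The groups overlapped and their means differed by a log2 ratio of 0.00. As a share of all counts, before TMM scaling, the 96 genes took 2.37%, 2.06% and 2.46% in KO libraries and 2.02%, 1.84% and 2.07% in WT libraries. The KO shares of replicates 1 and 3 lay above every WT share, and that of KO replicate 2 lay within the WT range. By complex, summed subunit levels were 5658 ± 495 CPM in KO and 6140.2 ± 781 CPM in WT for complex I, and 1225 ± 230.3 CPM in KO and 1059.6 ± 69.5 CPM in WT for complex II. Complex III summed to 2477 ± 347 CPM in KO and 2447 ± 267 CPM in WT, and complex IV to 4652 ± 269 CPM in KO and 4199.9 ± 856 CPM in WT. Complex V summed to 6892 ± 806 CPM in KO and 7027 ± 597 CPM in WT (SD, n = 3 each throughout). In each of the 5 complexes KO and WT libraries overlapped.

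**Figure D2:**
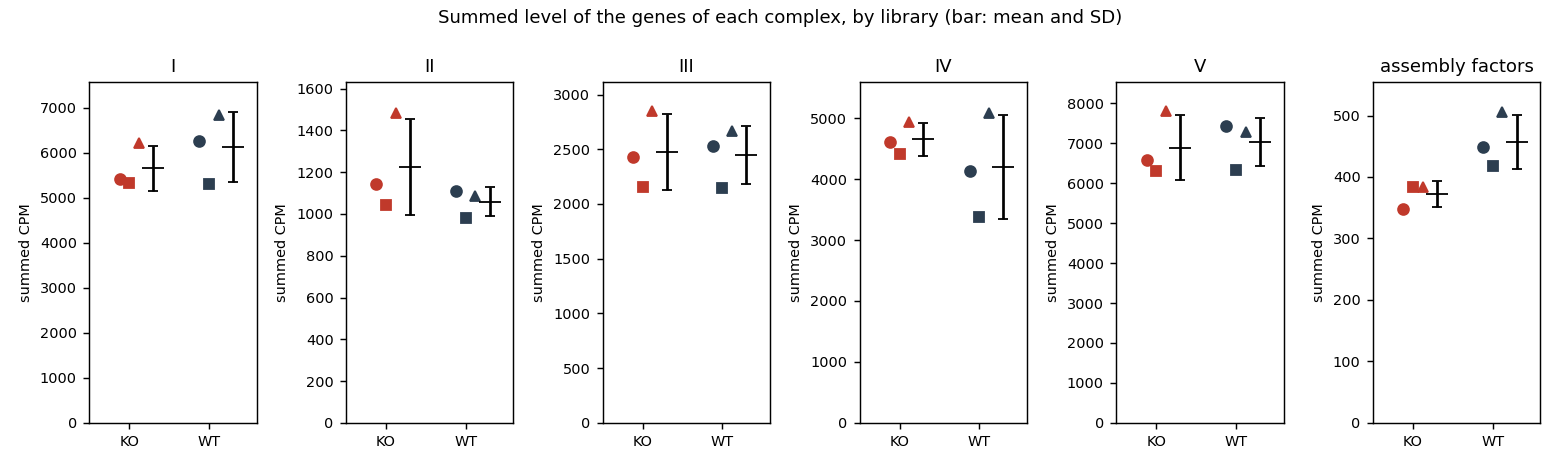
Summed TMM-scaled CPM (y axis) of the subunit genes of each complex and of the 15 assembly factor genes in each library, KO left and WT right, with mean and SD bars. KO and WT libraries overlap in complexes I to V, while the assembly factor sums are 347 to 384 CPM in KO and 418 to 505 CPM in WT.

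Cell type markers moved between the groups beside these values. The 6 muscle fibre markers (Acta1, Ckm, Myh4, Mb, Tnnt3 and Ttn) summed to 139375 to 182015 CPM in KO libraries and 212650.0 to 232486 CPM in WT libraries, without overlap, and 1 of 6 (Tnnt3) fell. All 6 white adipocyte markers rose, with sums of 57.2 to 74.3 CPM in KO and 13.1 to 43.6 CPM in WT. Of the 6 macrophage markers, 4 rose (195.8 to 284 CPM summed in KO and 61.5 to 141 CPM in WT), and of the 4 fibroblast markers 2 rose (789.7 to 1467 CPM in KO and 549.6 to 829.9 CPM in WT). Of the 4 markers of brown adipocytes, cells rich in respiratory chain, 2 were tested, and Cidea rose and Cpt1b was not called. Elovl3 and Ucp1 were not tested, and Ucp1 was at 0 in 4 libraries and at most 0.02 CPM in the others. The 4 summed to 12.9 to 22.4 CPM in KO and 15.6 to 18.7 CPM in WT. Smooth muscle and pericyte markers had 1 of 4 risen, and endothelial (0 of 4), red blood cell (0 of 4), Schwann cell (0 of 4) and satellite cell (0 of 3) markers had no call in edgeR. Of the fibre markers, 0 fell without KO replicate 1, KO replicate 2, WT replicate 1 or WT replicate 3 and with library size alone, 3 without KO replicate 3, and 4 in DESeq2. At an unadjusted p under 0.05 in edgeR, 1 red blood cell and 1 Schwann cell marker were higher and 1 endothelial marker was lower in KO, and DESeq2 called 1 red blood cell and 1 Schwann cell marker risen. The smooth muscle call was lost without KO replicate 1, WT replicate 1 or WT replicate 2. Without WT replicate 3, 2 red blood cell markers and 1 Schwann cell marker rose, and without KO replicate 3, 1 Schwann cell marker rose and 1 endothelial marker fell. Without KO replicate 2 the risen white adipocyte markers numbered 2 and without WT replicate 1 they numbered 3, and the risen fibroblast markers numbered 0 without WT replicate 3. The part of these cell types in the results below was not tested. In whole muscle, fewer fibres and less RNA per fibre cannot be told apart.

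Complex I had 1 called gene among its 36 subunit genes. Ndufs4, an accessory subunit at the peripheral arm whose loss causes a Leigh-like encephalopathy in mice, had 83.5, 118 and 96.5 CPM in KO libraries, against 166, 172 and 156 CPM in WT libraries. Every KO library lay below every WT library. Ndufs4 was 1.66-fold lower in KO muscle (log2 fold change -0.73 with SE 0.16, edgeR adjusted p = 0.00859). Leaving out any single library kept this call, and leaving out KO replicate 1 together with WT replicate 2 ended it.

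The next gene by p, Ndufv3, an accessory subunit of the NADH-oxidising tip, had 71.9, 69.6 and 82.5 CPM in KO libraries and 97.5, 88.1 and 130.2 CPM in WT libraries. The groups did not overlap, and its adjusted p by edgeR was 0.0561 (log2 fold change -0.50, SE 0.17). Ndufa6, an accessory subunit of the LYR motif family, did not overlap either, at 125 to 138 CPM in KO and 156 to 193 CPM in WT (adjusted p = 0.0686 by edgeR), and these were the only 2 uncalled subunit genes with all KO libraries below all WT libraries. DESeq2 called Ndufv3 and Ndufa6 fallen, and Ndufv3 was called in 7 of 22 alternatives. The 7 nuclear core subunits, which carry the flavin and iron-sulphur clusters, had no call, and 6 of them had a log2 fold change below 0 (median -0.28). Their sums were 1547, 1439 and 1978 CPM in KO libraries and 2001, 1771 and 1903 CPM in WT libraries, which overlapped. The 29 accessory subunits had a median of -0.07, with 12 above 0 and 17 below. Core subunit values ran from Ndufs7 at -0.37 (95% interval -0.86 to 0.12) to Ndufv1, which holds the flavin, at 0.14 (-0.34 to 0.61).

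By level per kb of gene length, Ndufb8, an accessory membrane-arm subunit, was the highest complex I gene, at 767 CPM per kb in KO and 759 in WT. The lowest was Ndufa11 at 30.7 CPM per kb in KO and 35.6 in WT. Neither passed the test. Levels per kb rest on the length implied by the deposited table, which for 92 of 104 genes lay between the shortest and the longest transcript of the reference. The length of Ndufa11, 2.66 kb, was above its longest reference transcript of 0.918 kb.

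Complex II, which is also an enzyme of the citric acid cycle, is the only respiratory complex with no mitochondrially encoded subunit. All 4 of its genes had a log2 fold change above 0, between 0.15 and 0.29, and 0 passed in edgeR, 0 of them at an unadjusted p under 0.05. Sdhd, a membrane anchor and the lowest per kb, had 201, 187 and 232 CPM in KO libraries and 181, 132 and 192 CPM in WT libraries. Sdhb, the iron-sulphur subunit, had 337, 345 and 415 CPM in KO libraries and 324, 254 and 347 CPM in WT libraries. The groups overlapped for each of the 4 genes. Sdha, the flavoprotein, was the highest at 1005 CPM per kb in KO and 905 in WT, on a deposited length of 0.429 kb, where the longest reference transcript is 2.90 kb.

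None of the complex III genes was called. The 9 complex III genes lay between -0.13 and 0.17 on the log2 scale, and each had a 95% interval within -1 and 1. Uqcrh, the hinge protein, had 257, 251 and 260.2 CPM in KO libraries and 224, 197 and 264 CPM in WT libraries. Uqcrb, a small subunit near the ubiquinone site, had 140.2, 199.9 and 141 CPM in KO libraries and 129.9, 127 and 170.3 CPM in WT libraries. KO replicate 2 was the highest of the 6, and without it the log2 fold change of Uqcrb was -0.0036. Per kb, Uqcr10 was the highest gene of the complex (605 in KO and 599 in WT) and Uqcrfs1, the Rieske protein, at 222 in KO and 219.9 in WT, was the lowest. Cycs, the somatic cytochrome c gene, had 195, 306 and 199 CPM in KO libraries and 206, 172 and 227 CPM in WT libraries, with KO replicate 2 again the highest. Cycs was not called either (log2 fold change 0.21).

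Complex IV held the only subunit gene that rose. Cox8a, the ubiquitous form of the smallest subunit, had 51.2, 36.6 and 51.2 CPM in KO libraries, against 29.7, 30.4 and 36.0 CPM in WT libraries. The groups did not overlap, but KO replicate 2 and WT replicate 3 lay side by side. Cox8a was 1.45-fold higher in KO muscle (log2 fold change 0.53 with SE 0.17, edgeR adjusted p = 0.0361). Without any 1 library other than KO replicate 2, its adjusted p no longer passed, with values of 0.0508 to 0.144.

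Of the 14 complex IV genes, 11 had a log2 fold change above 0, with a median of 0.16. Cox6a1, the ubiquitous form of subunit VIa and the lowest per kb, had 21.9, 15.8 and 24.4 CPM in KO libraries and 14.3, 12.5 and 17.4 CPM in WT libraries, with adjusted p = 0.0772 by edgeR (log2 fold change 0.49, SE 0.19). Cox6a1 was called risen in 10 of 22 alternatives. Cox6a2, the form of heart and skeletal muscle and the highest gene of the complex per kb, had 1152, 897.9 and 1310.0 CPM in KO libraries and 670.3, 574 and 1087 CPM in WT libraries. WT replicate 3 lay within the KO range, and the adjusted p by edgeR was 0.151 (log2 fold change 0.53, SE 0.25). Cox6a2 was called risen in 5 of 22 alternatives. Cox7a1, another muscle form, had 420.2, 433 and 399.7 CPM in KO libraries and 359, 212 and 359 CPM in WT libraries. Here the groups did not overlap, and the adjusted p by edgeR was 0.155 (log2 fold change 0.43, SE 0.21). Cox8b, the muscle form of subunit VIII, had 382, 371 and 371 CPM in KO libraries and 349.96, 318 and 549.6 CPM in WT libraries, a log2 fold change of -0.12. Cox7a2, the ubiquitous partner of Cox7a1, had a log2 fold change of 0.08. Cox4i1, the regulatory subunit, had 476, 359 and 566 CPM in KO libraries and 649, 517 and 608 CPM in WT libraries (log2 fold change -0.34).

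The ratio of muscle to ubiquitous isoform within a library needs no scaling between libraries. The log2 ratio of Cox8b to Cox8a counts was 2.90, 3.34 and 2.85 in KO libraries, against 3.56, 3.38 and 3.93 in WT libraries. All KO ratios lay below all WT ratios, with KO replicate 2 close to WT replicate 2. The means were 3.03 ± 0.27 in KO and 3.62 ± 0.28 in WT (SD, n = 3 each), a difference of -0.59 with p = 0.1 by an exact two-sided permutation test, the smallest p that 3 against 3 allows. For Cox7a1 to Cox7a2 the log2 ratio was 1.32, 1.22 and 1.43 in KO libraries and 1.25, 0.61 and 0.94 in WT libraries, which overlapped (difference 0.39, exact permutation p = 0.2). For Cox6a2 to Cox6a1 it was 5.72, 5.83 and 5.75 in KO libraries and 5.55, 5.52 and 5.96 in WT libraries (difference 0.09, exact permutation p = 0.6). Adjusted over the 3 pairs, the exact permutation p-values were 0.3, 0.3 and 0.6, and the differences ran in opposite directions for Cox8 and Cox7a. Per kb, the muscle form made up 91.6 to 93.9% of the Cox8 pair in KO and 94.0 to 95.8% in WT, 82.8 to 84.8% of the Cox7a pair in KO and 75.9 to 83.1% in WT, and 97.9 to 98.1% of the Cox6a pair in KO and 97.6 to 98.3% in WT. These shares rest on deposited lengths, which for Cox6a2, Cox7a1, Cox7a2 and Cox8b lay outside the range of the reference transcripts. Cox7a1 had 0.364 kb (shortest transcript 0.393 kb) and Cox7a2 0.754 kb (longest 0.659 kb).

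**Figure D3:**
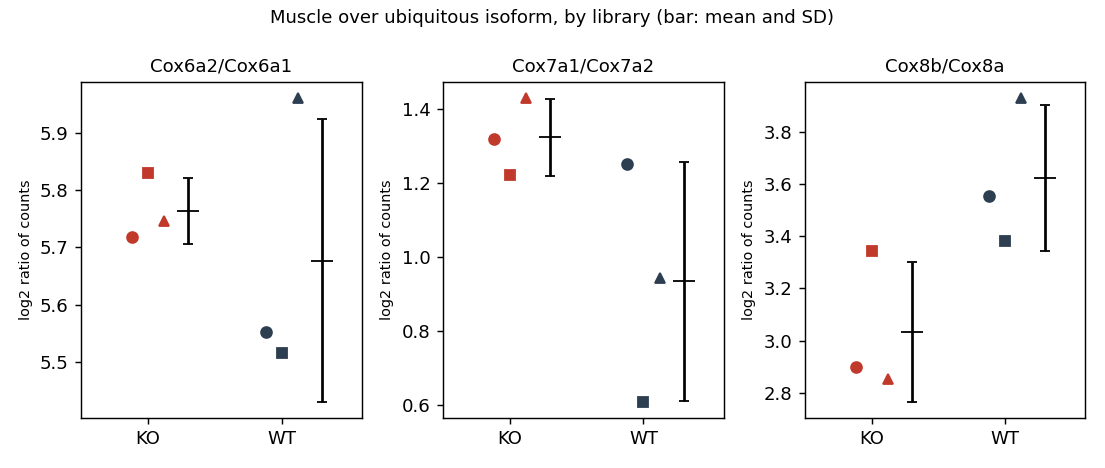
Log2 ratio of muscle to ubiquitous isoform counts (y axis) in each library for 3 complex IV subunits, KO left and WT right, with mean and SD bars. The Cox8b/Cox8a ratios lie at 2.85 to 3.34 in KO and 3.38 to 3.93 in WT, and the other 2 pairs overlap.

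Forms of other tissues were rare in both groups. Cox4i2, the lung form of subunit IV, had 1.54, 1.17 and 1.05 CPM in KO libraries and 1.40, 1.54 and 1.62 CPM in WT libraries, and Ndufa4l2, a hypoxia-induced relative of Ndufa4, 3.06 to 3.93 CPM in KO and 3.07 to 5.07 CPM in WT. Neither was called, and Cox6b1 and Ndufa4 themselves stood at log2 fold changes of 0.17 and 0.15. The other 3 forms, known from testis, stood apart in 1 library. Cox6b2 had 0.10 to 0.17 CPM in KO libraries and 0.06, 0.54 and 0.07 CPM in WT libraries, with the high value in WT replicate 2. Cox8c was at 0 in KO replicates 1 and 3 and in WT replicates 1 and 3, at 0.015 CPM in KO replicate 2 and at 0.46 CPM in WT replicate 2. Cox7b2 was at 0 in KO replicates 1 and 2, at 0.019 CPM in KO replicate 3, and at 0.01, 0.20 and 0.03 CPM in WT replicates 1, 2 and 3. Cox7b2, Cox8c and the pseudogenes Atp5l-ps1 and Atp5l2 did not pass the filter. The remaining 3 genes of the prefixes, the supercomplex factor Cox7a2l and the non-subunits Atp5s and Atp5sl, had log2 fold changes of 0.00, -0.30 and -0.12 and were not called.

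Complex V had 0 called genes of 15 in edgeR, with 1 at an unadjusted p under 0.05. Atp5k, subunit e of the membrane part, had 204, 209 and 215 CPM in KO libraries and 168, 168 and 158 CPM in WT libraries. The groups did not overlap, and the adjusted p by edgeR was 0.0948 (log2 fold change 0.34, SE 0.14), whereas DESeq2 called it. Atp5f1, the peripheral stalk subunit b, had 326, 387 and 380.0 CPM in KO libraries and 317, 262 and 331 CPM in WT libraries, which overlapped. Atp5g3, a gene of the proton-carrying c ring, and Atp5j2, subunit f, had KO libraries above WT libraries without a call (log2 fold changes 0.19 and 0.23), while the sister genes Atp5g1 and Atp5g2 were at -0.20 and -0.27. Atp5b, the catalytic beta subunit, was the highest gene of all 79 per kb (2652 in KO and 2607 in WT, log2 fold change 0.02). This rank rests on a deposited length of 0.768 kb, where the longest reference transcript is 1.92 kb. The lowest of the complex over all libraries was Atp5l, subunit g (217 per kb in KO and 224 in WT), which shares near-identical sequence with 9 other genes. The 5 of these that were counted held 145 counts over all libraries, against 51262 for Atp5l. The part of shared reads in its level was not tested.

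Assembly factors are needed in small amounts, while a complex is being built. Of the 7 found by name, 4 fell and 0 rose, with a median log2 fold change of -0.46, beside 12.4% of all genes tested that fell. Of the 8 under other names, 4 fell and 1 rose (median -0.46). In all 15, 13 log2 fold changes were below 0, and KO and WT libraries did not overlap for 11 genes (9 lower and 2 higher in KO), 73.3% of them, beside 42.6% of all genes tested. The 15 genes summed to 347, 384 and 384 CPM in KO libraries, against 448, 418 and 505 CPM in WT libraries. The authors' deposited table called 7 of the 15 down and 1 up.

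Of the 4 complex I factors found by name, 3 fell. Ndufaf2, which binds a late intermediate of complex I, had 2.61, 3.32 and 2.39 CPM in KO libraries, against 4.95, 4.87 and 5.73 CPM in WT libraries. The groups lay well apart, on 171 to 403 counts per library, and Ndufaf2 was 1.87-fold lower (log2 fold change -0.91 with SE 0.19, edgeR adjusted p = 0.00613). Its call held in all 22 alternatives tried. Ndufaf3 and Ndufaf4 act as a pair in early assembly. Ndufaf3 had 5.38, 6.03 and 7.58 CPM in KO libraries, against 9.90, 9.18 and 11.8 CPM in WT libraries (log2 fold change -0.70 with SE 0.18, edgeR adjusted p = 0.0151). Ndufaf4 had 20.6, 28.9 and 23.3 CPM in KO libraries, against 36.5, 33.3 and 39.5 CPM in WT libraries (log2 fold change -0.59 with SE 0.16, edgeR adjusted p = 0.0191). Neither overlapped. Ndufaf1, which acts with Ecsit in building the membrane arm, had 17.6, 26.0 and 21.8 CPM in KO libraries and 28.2, 25.02 and 29.4 CPM in WT libraries, which overlapped (log2 fold change -0.34, adjusted p = 0.148 by edgeR).

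Among complex I factors under other names, 1 rose. Ndufaf5 (2310003L22Rik in the table), which hydroxylates the core subunit Ndufs7, had 41.1, 58.6 and 44.6 CPM in KO libraries, against 27.4, 22.3 and 30.8 CPM in WT libraries. All KO libraries lay above all WT libraries (log2 fold change 0.84 with SE 0.18, edgeR adjusted p = 0.00642). Ndufaf6 (2310030N02Rik) fell, with 6.85, 8.02 and 8.75 CPM in KO libraries, against 13.6, 11.3 and 15.02 CPM in WT libraries (log2 fold change -0.76 with SE 0.16, edgeR adjusted p = 0.00725). Ndufaf7 (2410091C18Rik), a methyltransferase, had a log2 fold change of -0.37 without overlap (adjusted p = 0.0698 by edgeR). Ndufaf8 (1810043H04Rik), known in human cells as the partner of Ndufaf5, was at -0.24 with overlapping groups.

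Complex II factors load Sdhb with iron-sulphur clusters or Sdha with its flavin. Sdhaf3 (Acn9), of the iron-sulphur step, had 4.22, 5.28 and 3.99 CPM in KO libraries, against 8.71, 9.58 and 10.2 CPM in WT libraries. It was 2.12-fold lower without overlap (log2 fold change -1.08 with SE 0.17, edgeR adjusted p = 0.00143), the lowest p of the 15. Sdhaf1, of the same step, had 8.93, 8.39 and 9.17 CPM in KO libraries, against 11.9, 10.3 and 14.3 CPM in WT libraries. Its adjusted p by edgeR was 0.0499 (log2 fold change -0.46, SE 0.16), and the call held in 9 of 22 alternatives. Sdhaf1 also shares exon sequence with a transcript on the opposite strand, E130208F15Rik, and whether counting used strand is not stated. Sdhaf2, of the flavin step, had 30.01, 31.2 and 36.5 CPM in KO libraries and 27.6, 25.7 and 29.0 CPM in WT libraries (log2 fold change 0.25, adjusted p = 0.208 by edgeR), and Sdhaf4 (1110058L19Rik) was at -0.21.

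Complex III factors stabilise newly made cytochrome b. Uqcc3 (AI462493) had 13.3, 8.74 and 13.7 CPM in KO libraries, against 26.5, 21.3 and 20.7 CPM in WT libraries (log2 fold change -0.94 with SE 0.19, edgeR adjusted p = 0.00510). Uqcc2 (2900010M23Rik) had 101.2, 100.8 and 90.5 CPM in KO libraries, against 125, 124 and 177 CPM in WT libraries (log2 fold change -0.54 with SE 0.17, edgeR adjusted p = 0.0402). Both lay below WT in every KO library. Uqcc, the table's name for Uqcc1, had 67.4, 72.0 and 91.0 CPM in KO libraries and 94.3, 90.7 and 82.1 CPM in WT libraries, which overlapped.

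**Figure D4:**
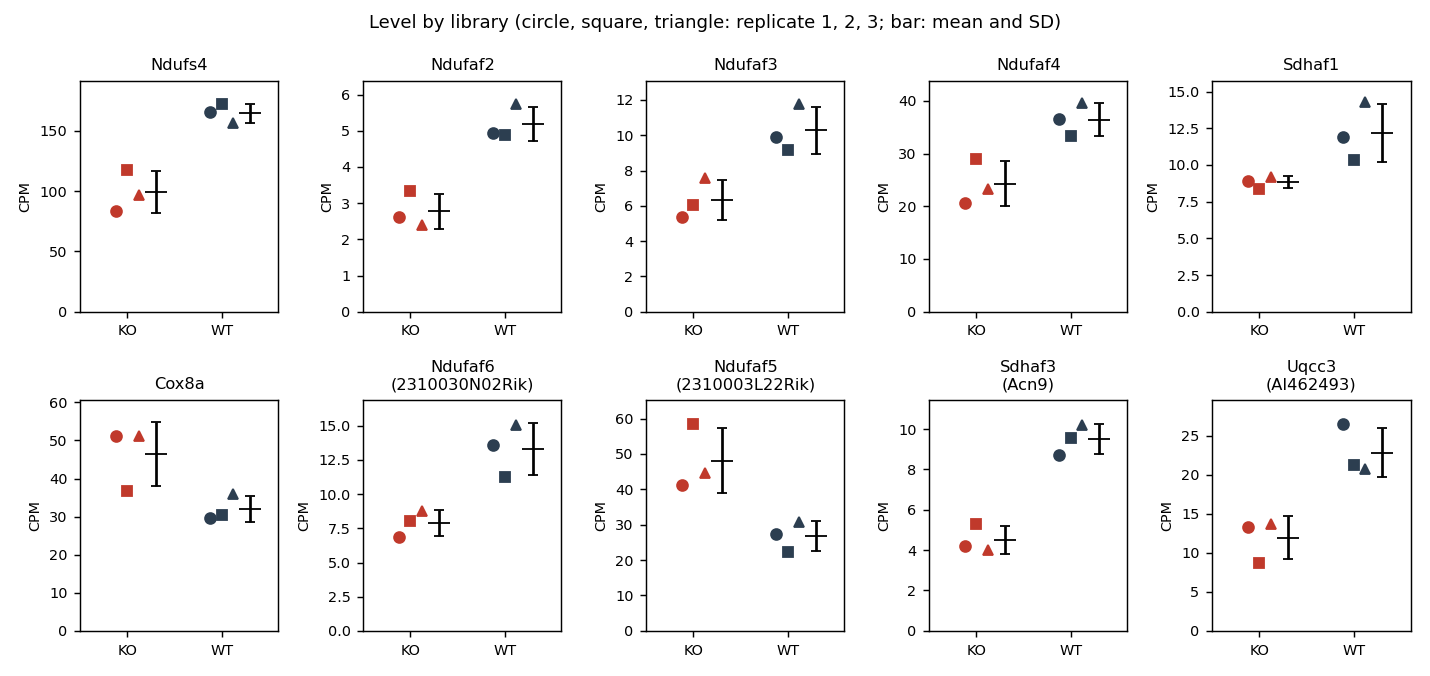
Level in TMM-scaled CPM (y axis, from 0) of the 6 called genes found by name and of Ndufaf6, Ndufaf5, Sdhaf3 and Uqcc3 in each library, KO left and WT right, with mean and SD bars. KO and WT libraries do not overlap in any panel, and Cox8a and Ndufaf5 are higher in KO, the other 8 lower.

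These counts depended on single libraries and on scaling. With library size alone, 2 of the 7 factors found by name fell and 1 rose (Sdhaf2). Of the 7 factors found by name, 1 fell without KO replicate 1 or without WT replicate 3, 2 without KO replicate 3 or without WT replicate 1, and 4 without KO replicate 2 or WT replicate 2. Of the 8 under other names, 3 to 4 fell and 1 rose in the same omissions, and Ndufaf5, Ndufaf6, Sdhaf3 and Uqcc3 kept their calls in all 22 alternatives. Exons of Ndufaf2 and Ndufaf3 also overlap a gene on the other strand (B230220B15Rik and Impdh2), whose reads may be shared.

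Assembly genes outside these names were taken as further lists. For complex I, 3 of 7 fell and 0 rose: Nubpl, an iron-sulphur carrier, at a log2 fold change of -1.16 (SE 0.17), Ecsit at -0.65 (SE 0.20) and Timmdc1 (4930455C21Rik) at -0.46 (SE 0.15). For complex III, 1 of 3 fell, Bcs1l, which inserts the Rieske protein, at -0.73 (SE 0.17), and 2 did without WT replicate 3. For complex IV, 3 of 21 fell and 0 rose, close to the 12.4% of all genes: Coa7 (2010305A19Rik) at -0.89 (SE 0.15), Coa3 (Ccdc56) at -0.79 (SE 0.18) and Coa5 (6330578E17Rik) at -0.44 (SE 0.14). For complex V, 1 of 7 fell, Atpaf2, a chaperone of the alpha subunit, at -0.74 (SE 0.14). Nubpl had 3.11 ± 0.45 CPM in KO and 6.91 ± 0.48 CPM in WT, and Atpaf2 14.01 ± 0.65 CPM in KO and 23.4 ± 3.01 CPM in WT (SD, n = 3 each). The complex I count of fallen genes was 1 without KO replicate 1, KO replicate 2, WT replicate 1 or WT replicate 3, and also with library size alone. Of the 7 complex I genes, 1 had a log2 fold change above 0, at 0.46. A rise of 1 complex I gene was called in several alternatives. Among them were library size alone, upper-quartile scaling, DESeq2, the replicate block and the fit without KO replicate 2.

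Counts in neighbouring steps stand beside the 25.9% of all genes called. Of 12 coenzyme Q synthesis genes, 3 fell (Coq2 at -0.59, Coq4 at -0.74 and Pdss2 at -0.48), but 0 did without KO replicate 1 or without WT replicate 1, and 1 without WT replicate 3. In the main fit 7 of the 12 log2 fold changes were above 0, with a median of 0.11. With upper-quartile scaling, DESeq2 or the replicate block, 1 of the 12 rose and 3 fell. With library size alone, 3 of the 12 rose and 0 fell. Of 17 citric acid cycle and pyruvate dehydrogenase genes, 1 rose, the mitochondrial isocitrate dehydrogenase gene Idh2, with 90.7 ± 26.0 CPM in KO and 59.6 ± 6.27 CPM in WT (log2 fold change 0.61), and 0 did without KO replicate 3 or without any 1 WT library. Of 7 genes for ATP and phosphate exchange, the carrier gene Slc25a5 rose (0.45) and the channel gene Vdac2 fell (-0.48). Both calls were lost without KO replicate 1, without KO replicate 3 or without any 1 WT library, and with library size alone 1 of the 7 rose and 0 fell. Of 14 regulators of respiratory genes, Tfam, which packages mitochondrial DNA, fell to 22.04 ± 1.92 CPM in KO, against 31.7 ± 1.66 CPM in WT (log2 fold change -0.53, adjusted p = 0.0150 by edgeR). The count of fallen regulators was 0 without KO replicate 1, without WT replicate 1 or with library size alone, where 1 rose. In DESeq2, and also without KO replicate 2, 1 regulator rose and 1 fell. Ppargc1a, Nrf1, Gabpa, Esrra and Yy1 were not called, with log2 fold changes of -0.36, -0.08, 0.03, -0.42 and -0.05. Of the 12 mitochondrially encoded mRNAs found, 0 passed in edgeR, in DESeq2 or in limma-voom, and 0 had an unadjusted p under 0.05 in edgeR.

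Libraries of 1 group differed from each other across the subunit genes. In KO replicate 1 the deviation of a subunit gene from its group mean went with the GC content of its transcripts (Spearman rho 0.70 over 79 genes), likewise in KO replicate 3 (0.51), and the other way in KO replicate 2 (-0.70). In WT replicates 1, 2 and 3 rho was 0.06, -0.32 and 0.26. The genes share their libraries, so these values describe the libraries. Over all tested genes with a GC value, rho was 0.43, -0.57 and 0.35 in KO replicates 1 to 3. In WT replicate 2, 6 of 79 subunit genes were above the WT mean (median deviation -0.20), and in WT replicate 3, 69 of 79 were (0.21). The log2 fold change itself had a rho of -0.06 with GC over the subunit genes, and the part of GC content in single calls was not tested beyond removing its trend, which left Cox8a and Ndufs4 called.

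**Figure D5:**
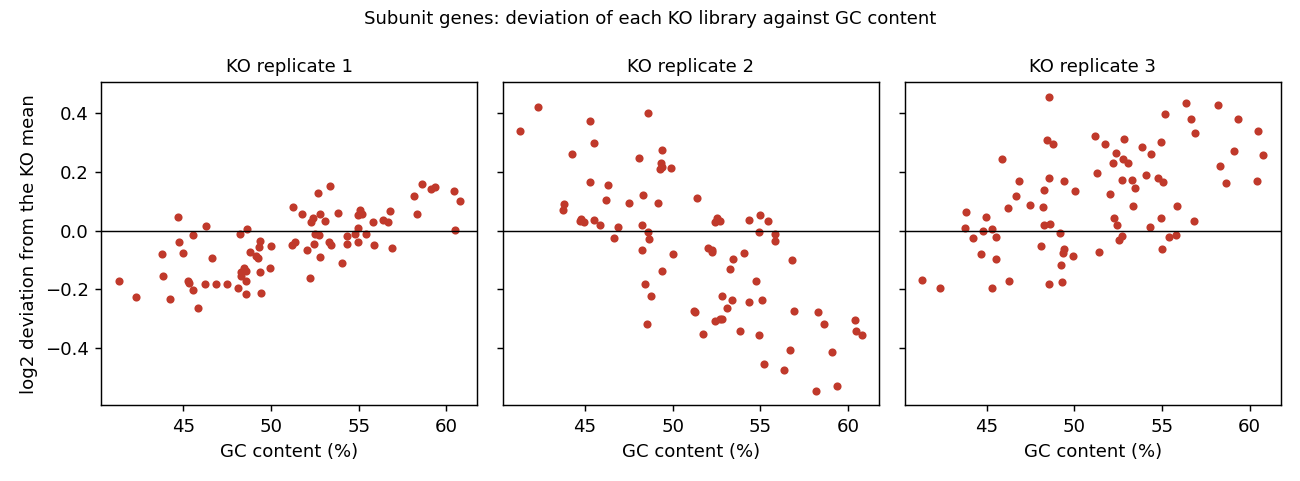
Deviation of each of the 79 subunit genes from its KO mean on the log2 scale (y axis) against GC content in percent (x axis) in the 3 KO libraries. GC-rich genes lie higher in KO replicates 1 and 3 (Spearman rho 0.70 and 0.51) and lower in KO replicate 2 (-0.70).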

How the data were processed

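RNA of 3 KO and 3 WT samples was sequenced with a stranded total RNA kit that depletes ribosomal RNA, per the labels' protocols. Tools named in the submitters' processing notes are HTSeq 0.6.1, TopHat2 2.0.14, Bowtie and bcl2fastq 2.17.1.14, with build mm9. The sources used here give neither the annotation nor whether counting used strand. The deposited table holds raw counts per gene and library, per the file headers. It also holds a signal, normalized and length-divided by the authors, from which only the gene length was taken. The authors' own log2 fold change, p-value and adjusted p-value were deposited beside them.

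Counts were tested with edgeR 4.0.16 in R 4.3.3 (TMM, filterByExpr with a minimum count of 10 and a total of 15, quasi-likelihood F test without covariates, Benjamini-Hochberg over 16628 genes). The SE was taken as the log2 fold change's size over the root of F. Levels are TMM-scaled CPM at 35456883 to 102919416 counts per library. Isoform ratios had exact permutation tests (scipy 1.17.1), and sums had no test. The fit was tested on simulated data. Alternatives were other scalings and filters, DESeq2 1.42.0, limma-voom (limma 3.58.1), robust dispersion, a replicate block, length and GC trends and left-out libraries. Those with GC were added after the data were seen. Of 148 symbols in further lists, 145 were found. Near-identical copies were sought with blastn (95% identity over 50% of the longest transcript) in a GENCODE annotation of GRCm38, and promoters came from RefSeq.

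Named genes are those called, the isoform pairs, per complex and its assembly factors the 2 with the lowest p, the highest and lowest per kb, and up to 3 called genes per further list. Ndufa6, Ndufs7, Ndufv1, Atp5g1 to Atp5g3, Atp5j2, the remaining assembly factors, regulators, markers and non-subunit members were named after their values were seen. Planned protein sequences are not used here. Members and lists were chosen with earlier results of these data known. Figures were drawn with matplotlib 3.10.9.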

Additional observations from a re-analysis of the deposited data

How the results depend on the processing

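The lowest subunit gene averaged 17.7 CPM over libraries of 35456883 to 102919416 counts, and whether depth or the number of libraries limits the calls was not tested. Ndufaf2, Ndufaf5, Ndufaf6, Sdhaf3 and Uqcc3 kept their calls in all 22 alternatives, Ndufs4 in 21, Ndufaf3 in 19, Ndufaf4 and Cox8a in 16, Uqcc2 in 13 and Sdhaf1 in 9. The differences in isoform ratio kept their sign under every alternative tried, and counts per kb give the same differences by construction. The cause of each change below was not tested.

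Library size alone gave 3418 genes risen and 1030 fallen of all genes, with 7 subunit genes risen, 1 assembly factor found by name risen and 2 fallen. Risen subunit genes numbered 3 with upper-quartile scaling or the stricter filter, 2 with the length trend removed, and 2, with 2 fallen, without a filter. DESeq2 had 2 subunit genes risen and 3 fallen, as had removal of GC and length trends. With KO replicate 1 and WT replicate 2 both left out, 1113 of all genes rose and 977 fell, with 0 subunit genes risen, 0 fallen and 1 assembly factor found by name fallen. Leaving out each library in turn gave 1391 to 2321 genes risen and 1168 to 2189 fallen, 0 to 2 subunit genes risen, 1 to 3 fallen, and 1 to 4 assembly factors found by name fallen. The lowest counts of all genes came without KO replicate 1, and 1477 rose without WT replicate 3.

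The labels do not say whether the replicate numbers pair the samples, and pairing was not tested. Deviations of same-numbered KO and WT libraries from their group means correlated at 0.060, 0.015 and 0.063. Those of differently numbered libraries correlated at -0.078 to 0.025. With the replicate block, 3 subunit genes rose (Cox6a1, Cox6a2 and Cox8a) and 2 fell (Ndufs4 and Ndufv3), the same numbers as with the block and the length trend together, and with the block, GC and length trends 3 rose and 3 fell.

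Sign changes were followed only for the uncalled genes of the isoform pairs and those named for their p or their level per kb. Other genes without a call may turn sign too. Among the genes followed, the log2 fold change turned sign as follows. With library size alone it was 0.11 for Cox8b, 0.049 for Ndufa4l2, 0.0097 for Ndufa11 and 0.17 for Atp5l. Atp5l stood at 0.022 with upper-quartile scaling and at 0.0090 with the stricter filter, and Cox6b2 at 0.078 with limma-voom. With KO replicate 1 and WT replicate 2 both left out it was -0.016 for Cox7a2, -0.012 for Cox6b1, -0.22 for Ndufb8, -0.17 for Uqcr10 and -0.0082 for Atp5b. With each library left out in turn the range was -0.016 to 0.21 for Cox7a2, -0.27 to 0.16 for Cox8b, -1.14 to 0.89 for Cox6b2, -0.023 to 0.37 for Cox6b1, -0.34 to 0.035 for Ndufa4l2, -0.0036 to 0.31 for Uqcrb and -0.011 to 0.34 for Cycs. It was -0.19 to 0.17 for Ndufb8, -0.083 to 0.31 for Sdha, -0.12 to 0.17 for Uqcr10, -0.086 to 0.11 for Uqcrfs1, -0.11 to 0.15 for Atp5b and -0.12 to 0.076 for Atp5l.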
